A study of Homo sapiens with 15 samples.

Results

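HDLM2 is a cell line from classical Hodgkin lymphoma. Its profile was taken from the 2 arrays titled for it, of 15 in the series, and set against the 8 arrays of the other Hodgkin lines. The arrays were chosen by title alone, with no measured value. The 8 arrays stood for 4 lines of origin, each with the same weight: L428, L1236 and KM-H2 with 2 arrays each, and L540 averaged with L540Cy, with 1 array each. The series measured 9 untreated human lymphoid lines on Affymetrix U133 Plus 2.0 arrays with total RNA. Its 5 arrays of Namalwa, SU-DHL-4 and Reh, lines from B cell lymphoma and leukaemia outside the Hodgkin group, serve here only as a range. The design text calls the paired arrays biological duplicates, so a p-value over arrays rests on the spread between cultures of a line. That spread includes anything that arrays of the same replicate number share. HDLM2 itself is 1 line, from 1 tumour, whatever the number of arrays.

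As background, Hodgkin and Reed-Sternberg cells mostly descend from B cells that have lost the B cell programme. They rely on JAK-STAT and NF-kB signalling, carry the receptor CD30 (gene TNFRSF8) and the sugar epitope CD15 (made by FUT4), and draw other immune cells around them with the chemokines CCL17 and CCL22. HDLM2 and L540 are commonly described as lines of T cell type and the others as lines of B cell type, and L540Cy is a derivative of L540. The band 9p24 on the short arm of chromosome 9 holds the kinase gene JAK2 beside the genes of both PD-1 ligands, and gains of it are known in Hodgkin lymphoma. DNA copy number was not measured here.

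The sequences shown first are promoter windows from RefSeq (build GRCh38.p14), 250 bases before to 50 bases after each gene's start, 5′ to 3′ on the gene's own strand. SEPTIN10 and SOWAHC are shown because they are neighbours with the largest rises in HDLM2, point away from each other and have 397 bases between their starts. Their windows lie at chr2:109613917-109614216 on the minus strand and at chr2:109614114-109614413 on the plus strand. Capitals mark the 103 bases that both windows share, read from opposite strands.
SEPTIN10: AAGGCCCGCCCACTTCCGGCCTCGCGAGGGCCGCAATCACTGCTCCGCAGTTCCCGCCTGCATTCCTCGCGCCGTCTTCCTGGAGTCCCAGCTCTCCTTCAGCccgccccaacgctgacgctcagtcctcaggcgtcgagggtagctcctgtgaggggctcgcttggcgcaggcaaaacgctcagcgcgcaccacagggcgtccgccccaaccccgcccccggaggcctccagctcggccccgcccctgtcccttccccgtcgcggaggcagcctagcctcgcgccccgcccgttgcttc
SOWAHC: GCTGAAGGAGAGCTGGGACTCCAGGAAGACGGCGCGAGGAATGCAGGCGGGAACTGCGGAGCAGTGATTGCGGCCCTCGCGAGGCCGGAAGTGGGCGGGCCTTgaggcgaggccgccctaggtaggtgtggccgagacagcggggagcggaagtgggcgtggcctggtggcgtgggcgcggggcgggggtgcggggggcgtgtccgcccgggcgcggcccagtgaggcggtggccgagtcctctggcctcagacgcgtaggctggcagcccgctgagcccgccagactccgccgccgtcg
These windows hold 33 and 36 CpG pairs, against a median of 14 over 35116 windows, and 17.2% of all windows hold at least as many as the lower of the pair.

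CD274, GBP1 and CXCL10 are shown because their levels in HDLM2 mark the PD-1 ligand group and the opposite ends of the interferon-stimulated genes. Capitals mark TTCNNNGAA, letters that STAT dimers are known to bind, and GAAA followed by any 2 bases and GAAA, the core of the interferon-stimulated response element, each searched on both strands. The windows lie at chr9:5450292-5450591 on the plus strand, at chr1:89065159-89065458 on the minus strand and at chr4:76023448-76023747 on the minus strand.
CD274: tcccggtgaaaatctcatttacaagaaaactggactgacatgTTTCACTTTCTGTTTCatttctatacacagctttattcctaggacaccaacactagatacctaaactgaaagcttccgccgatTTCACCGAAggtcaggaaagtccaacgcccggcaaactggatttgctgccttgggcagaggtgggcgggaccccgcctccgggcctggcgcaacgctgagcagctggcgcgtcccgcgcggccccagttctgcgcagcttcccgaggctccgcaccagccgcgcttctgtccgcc
GBP1: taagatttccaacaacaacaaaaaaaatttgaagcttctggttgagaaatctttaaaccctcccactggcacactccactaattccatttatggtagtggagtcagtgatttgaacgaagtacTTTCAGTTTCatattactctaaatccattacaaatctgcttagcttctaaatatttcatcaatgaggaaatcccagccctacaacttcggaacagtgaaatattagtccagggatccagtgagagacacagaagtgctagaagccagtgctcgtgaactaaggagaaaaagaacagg
CXCL10: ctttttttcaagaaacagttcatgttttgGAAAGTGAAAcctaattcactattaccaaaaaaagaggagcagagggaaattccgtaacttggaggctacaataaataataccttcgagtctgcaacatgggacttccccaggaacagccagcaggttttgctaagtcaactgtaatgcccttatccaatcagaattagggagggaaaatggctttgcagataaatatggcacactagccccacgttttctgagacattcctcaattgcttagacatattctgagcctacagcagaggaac
In CD274, TTCACCGAA begins 125 bases before the start, and the response-element core appears as TTTCACTTTC at 208 and TTTCTGTTTC at 202 bases before it, with 4 bases in common. In GBP1 the core reads TTTCAGTTTC at 127 bases before the start, and in CXCL10 it reads GAAAGTGAAA at 221 bases. TTCNNNGAA is held by 7.66% of all windows, TTC and GAA with 4 bases between them, the spacing STAT6 is known for, by 6.44%, and the GAAA pair by 3.57%. SEPTIN10 and SOWAHC hold none of these letters. A match is a description of the letters only. In the lists below, shares count genes, each a holder if any of its windows has the letters. Shares over all windows count windows, so the 2 kinds of share are not alike.

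Values are log2 signals, so a difference of 1 is a doubling, and each difference below is HDLM2 minus the mean of the 4 other lines, ± its standard error. A gene is called when limma, fitted over the 10 Hodgkin arrays, gave a Benjamini-Hochberg adjusted p below 0.05 over all 19740 genes. On this scale 3150 genes were called higher in HDLM2 (16.0%) and 3227 lower (16.3%), and the median difference over all genes was 0.01. Those shares are the background for every list below. Both HDLM2 arrays lay above all 8 others for 1702 genes (8.62%) and below all of them for 1291 (6.54%). Array medians ranged from 5.51 to 5.56. The duplicates of HDLM2 differed most. The difference between its 2 arrays had an SD over genes of 0.36, against 0.24 to 0.30 in L428, L1236 and KM-H2.

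A stricter question is whether HDLM2 stood outside the spread between the lines themselves. With 1 mean per line, 39 genes were called higher (0.198%) and 6 lower (0.0304%) by limma, under the assumption that the lone line varies like the other 4. All 45 were also called over arrays, with HDLM2 outside the range of the 8 other arrays. None was called when any 1 of L428, L1236, KM-H2 or the L540 pair was left out, with 0 higher and 0 lower each time. Those fits held 3 other lines, and why the calls were lost was not tested. Among the 39 higher genes, 32 were also above every array of the non-Hodgkin lines, and all 6 lower genes were below them. HDLM2 was no further from the other lines than they were from each other: the SD of the difference over genes was 1.02 against L428, 1.04 against L1236, 1.11 against KM-H2 and 0.97 against the L540 pair, and 0.94 to 1.12 among the other lines.

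The Hodgkin label was checked on its defining markers. TNFRSF8 read 12.77 and 12.64 in HDLM2 and 9.24 to 12.15 (median 10.49) in the other arrays, a difference of 2.12 ± 0.19 (adjusted p = 4.50e-05). FUT4 read 10.35 and 10.28 in HDLM2 and 8.69 to 9.69 (median 9.10) in the other arrays, a difference of 1.19 ± 0.12 (adjusted p = 9.73e-05). Both were above every other Hodgkin array. BATF3 and GATA3, transcription factors that Hodgkin cells are known to express, read 13.50 and 13.30 and 12.13 and 12.43 in HDLM2, within the range of the other lines, which was 11.47 to 13.83 (median 13.02) and 8.97 to 12.77 (median 11.98).

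The 15 largest rises that were separated from all other arrays ran from 5.64 to 7.28 log2. SOWAHC, an ankyrin repeat gene, read 13.21 and 13.05 in HDLM2 and 3.79 to 11.52 (median 3.99) in the other arrays, a difference of 7.28 ± 0.13 (adjusted p = 2.98e-08). SEPTIN10, which encodes a filament-forming GTPase, read 12.48 and 13.21 in HDLM2 and 3.23 to 12.17 (median 3.42) in the other arrays, a difference of 7.28 ± 0.17 (adjusted p = 5.47e-08). The high end of the other arrays is the L540 pair for both genes, at 11.46 and 12.16, while L428, L1236 and KM-H2 lay between 3.31 and 4.06. HDLM2 and the L540 pair were both bright for these genes, and HDLM2 was above the pair by 1.53 and 0.31 log2 from array to nearest array. CLDN14, a tight junction claudin, had the same shape, with 12.46 and 12.11 in HDLM2, 9.08 in the L540 pair and 5.11, 5.26 and 4.90 in L428, L1236 and KM-H2, a difference of 6.20 ± 0.12 (adjusted p = 4.52e-08). RCAN2, a regulator of the phosphatase calcineurin, read 11.45 and 11.49 in HDLM2 and 10.12 in the L540 pair, and the overall difference was 5.68 ± 0.15 (adjusted p = 5.47e-08).

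Other leading rises were high in HDLM2 alone among the Hodgkin arrays. PRF1, which encodes the pore-forming protein perforin of killer cells, read 12.55 and 12.23 in HDLM2 and 5.90 to 6.64 (median 6.29) in the other arrays, a difference of 6.11 ± 0.13 (adjusted p = 4.52e-08). LAG3, an inhibitory receptor of activated T cells that binds MHC class II, read 10.61 and 10.61 in HDLM2 and 4.45 to 5.24 (median 4.79) in the other arrays, a difference of 5.79 ± 0.12 (adjusted p = 4.52e-08). S100A4, a calcium-binding protein, read 11.19 and 12 in HDLM2 and 5.31 to 6.11 (median 5.77) in the other arrays, a difference of 5.86 ± 0.20 (adjusted p = 2.39e-07). All 3 were called over line means too, with adjusted p = 0.0122, 0.0177 and 0.0168 from limma. In the non-Hodgkin arrays S100A4 stood at 9.52 to 10.46, between HDLM2 and the other Hodgkin lines. CD2, an adhesion receptor of T and NK cells, read 11.30 and 10.19 in HDLM2 and 4.52 to 6.70 (median 4.95) in the other arrays, a difference of 5.65 ± 0.25 (adjusted p = 7.65e-07). C1orf162 read 10.24 and 10.73 against 4.36 to 5.30 (median 4.81), a difference of 5.64 ± 0.15 (adjusted p = 5.80e-08).

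The remaining leading rises belonged to transport, matrix and metabolism. SLC1A1, a glutamate and cysteine transporter, read 11.40 and 12.40 in HDLM2 and 3.39 to 7.69 (median 5.25) in the other arrays, a difference of 6.48 ± 0.25 (adjusted p = 3.94e-07). GPR158, an orphan receptor, differed by 6.16 ± 0.19 (adjusted p = 1.40e-07) and COL6A5, a collagen VI chain, by 6.02 ± 0.33 (adjusted p = 2.61e-06). LGALS3, which encodes galectin-3, read 12.70 and 12.95 in HDLM2 but also 11.01 in L428, and differed by 5.86 ± 0.13 (adjusted p = 4.52e-08). TPM2, a tropomyosin, was nearly as high in KM-H2 (12.16) as in HDLM2 (12.44 and 12.37), while the other 3 lines were dim (overall difference 5.78 ± 0.15 (adjusted p = 5.80e-08)). TDO2, the enzyme that opens the ring of tryptophan, read 10.73 and 10.05 in HDLM2 and 3.51 to 6.42 (median 4.04) in the other arrays, a difference of 5.85 ± 0.30 (adjusted p = 1.89e-06). These 3 genes have several probe sets, and with their mean in place of the brightest the differences were 3.23, 2.31 and 3.11.

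**Figure D1:**
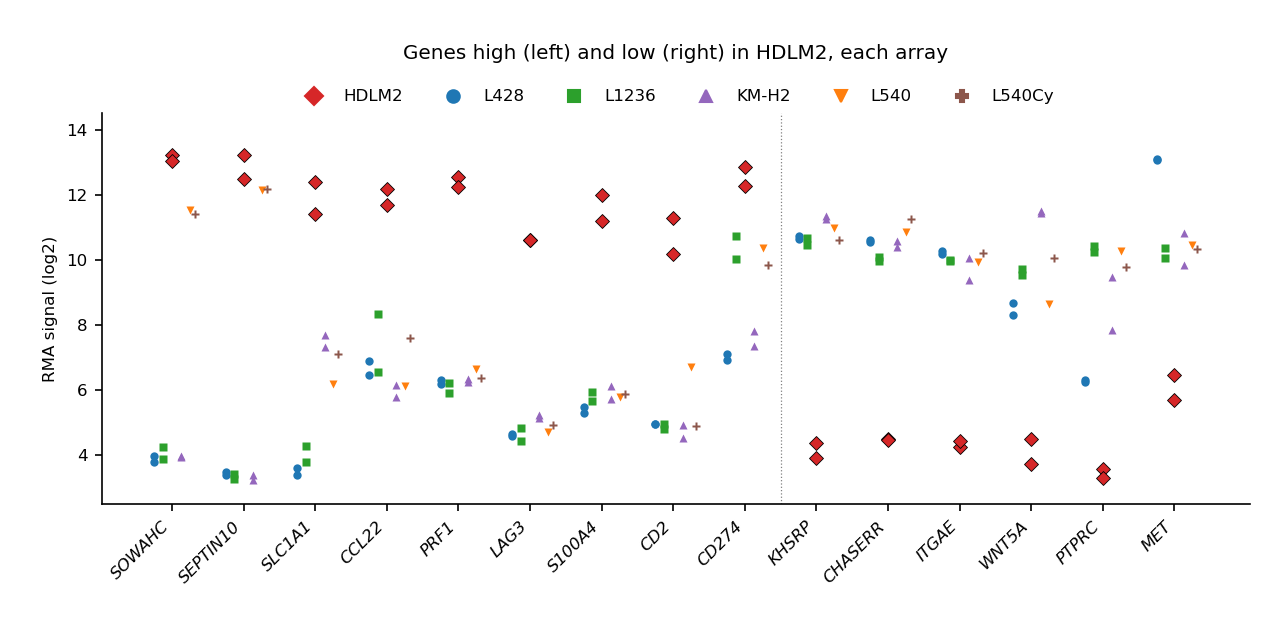
Log2 RMA signal on the vertical axis for 15 genes on the horizontal axis, 1 point for each Hodgkin array, coloured by line. HDLM2 (red diamonds) lies above every other array for the 9 genes on the left and below every other array for the 6 on the right, while SOWAHC and SEPTIN10 are also high in L540 and L540Cy, at 11.46 and 12.16 on average.

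The 15 largest falls ran from -6.70 to -4.84 log2. KHSRP, a protein that binds AU-rich RNA and speeds its decay, read 4.37 and 3.91 in HDLM2 and 10.47 to 11.34 (median 10.69) in the other arrays, a difference of -6.70 ± 0.14 (adjusted p = 4.52e-08). CHASERR, a long noncoding RNA known to restrain its neighbour CHD2, read 4.50 and 4.47 in HDLM2 and 9.98 to 11.25 (median 10.57) in the other arrays, a difference of -6.06 ± 0.10 (adjusted p = 2.98e-08). ITGAE, the integrin alpha chain CD103, read 4.24 and 4.45 in HDLM2 and 9.37 to 10.28 (median 10.04) in the other arrays, a difference of -5.66 ± 0.17 (adjusted p = 1.17e-07). The HDLM2 arrays lay 6.10, 5.48 and 4.92 log2 below the nearest other array for KHSRP, CHASERR and ITGAE, near the dim end of the scale, and each gene was also called over line means (adjusted p = 0.0193, 0.0475 and 0.0168, limma). GOLM1, a Golgi membrane protein, fell to 3.80 and 4.34 from 8.98 to 9.82 (median 9.21) in the other arrays, a difference of -5.27 ± 0.14 (adjusted p = 6.18e-08). GOLM1, SLC39A3, a zinc importer, and LINC00667, a noncoding RNA, completed the 6 calls over line means, the last pair at -3.36 ± 0.13 (-1.46 with probe sets averaged) and -3.17 ± 0.18 (-1.78). Averaged likewise, KHSRP differed by -2.81, CHASERR by -2.09 and GOLM1 by -2.66.

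Neighbours of these genes were low as well. CHD2, the chromatin remodeler gene next to CHASERR, read 4.86 and 5.05 in HDLM2 and 8.02 to 9.17 (median 8.47) in the other arrays, a difference of -3.53 ± 0.12 (adjusted p = 1.93e-07), or -2.31 with probe sets averaged. Both HDLM2 arrays lay below all others for CHASERR and CHD2. HASPIN, a mitotic kinase gene that lies inside ITGAE, read 4.46 and 4.12 in HDLM2 and 6.58 to 7.57 (median 7.44) in the other arrays, a difference of -2.96 ± 0.13 (adjusted p = 6.64e-07). Probe sets of overlapping genes can share signal. CHD2 and HASPIN were named after their values were seen.

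Further falls touched adhesion, signalling and surface receptors. PTPRC, the leukocyte phosphatase CD45, read 3.56 and 3.30 in HDLM2 and 6.24 to 10.43 (median 9.62) in the other arrays, a difference of -5.39 ± 0.33 (adjusted p = 5.19e-06). WNT5A, a secreted WNT ligand, read 3.73 and 4.51 in HDLM2 and 8.31 to 11.51 (median 9.63) in the other arrays, a difference of -5.62 ± 0.19 (adjusted p = 2.05e-07). MET, the receptor of hepatocyte growth factor, read 6.46 and 5.68 in HDLM2 and 9.83 to 13.09 (median 10.40) in the other arrays, a difference of -4.93 ± 0.27 (adjusted p = 2.47e-06). HDLM2 was below every other Hodgkin array for these genes, and for PTPRC it was also below every non-Hodgkin array, which read 10.10 to 11.82. ITGA4, the integrin alpha 4 chain that pairs with beta 1 or beta 7, read 3.86 and 3.72 in HDLM2 and 7.48 to 10.29 (median 8.51) in the other arrays, a difference of -4.92 ± 0.12 (adjusted p = 5.47e-08). PRMT6, an arginine methyltransferase, differed by -5.01 ± 0.14 (adjusted p = 6.72e-08), CYB5R2, a cytochrome b5 reductase, by -5.25 ± 0.13 (adjusted p = 5.47e-08) and NBDY, a microprotein of mRNA decapping bodies, by -4.86 ± 0.15 (adjusted p = 1.34e-07). Among the rest, SPTBN1 (spectrin), PTK2 (focal adhesion kinase), FMNL2 (a formin) and TOX (a T cell factor) differed by -5.16, -5.09, -5.01 and -4.84. With probe sets averaged the values were -2.85 for PTPRC, -2.45 for MET, -1.08 for SPTBN1, -2.26 for PTK2, -2.29 for FMNL2 and -2.71 for TOX.

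Among the 39 genes called higher over line means, several are best known from leukocytes. PTPRCAP, a partner of CD45, read 10.33 and 10 in HDLM2 and 5.85 to 6.38 (median 6.10) in the other arrays, a difference of 4.05 ± 0.16 (adjusted p = 3.94e-07), although CD45 itself was at the dim end. RCSD1, an actin-capping regulator of leukocytes, read 9.39 and 9.92 against 3.94 to 4.59 (median 4.29), a difference of 5.36 ± 0.21 (adjusted p = 3.94e-07), or 3.09 with probe sets averaged. SIGLEC10, an inhibitory lectin, differed by 2.80 ± 0.10, PSTPIP1, an adaptor that binds pyrin, by 3.25 ± 0.18, BIN2 by 3.06 ± 0.24 and LST1 by 2.53 ± 0.12. TSPO, an outer mitochondrial membrane protein, differed by 3.73 ± 0.11. Of these, RCSD1, PTPRCAP, TSPO and SIGLEC10 were as high in some or all non-Hodgkin arrays, whose ranges were 10.08 to 12, 8.11 to 10.10, 8.0 to 9.59 and 5.27 to 9.61.

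Other genes of that set are not usually linked to lymphoid cells. SFN, the 14-3-3 sigma protein of epithelial cells, read 12.64 and 12.96 in HDLM2 and 7.41 to 8.29 (median 8.04) in the other arrays, a difference of 4.87 ± 0.13 (adjusted p = 5.59e-08). NOTCH4, a NOTCH receptor of endothelium, read 9.14 and 9.54 in HDLM2 and 5.16 to 5.47 (median 5.29) in the other arrays, a difference of 4.04 ± 0.13 (adjusted p = 1.45e-07). INA, a neuronal intermediate filament, read 9.55 and 9.64 in HDLM2 and 5.44 to 5.65 (median 5.5) in the other arrays, a difference of 4.06 ± 0.10 (adjusted p = 5.47e-08). The 3 genes were above every array of the series outside HDLM2. ADRB1, the beta 1 adrenergic receptor, differed by 4.82 ± 0.15, HLF, a transcription factor of the PAR family, by 4.52 ± 0.11, IRX3, a homeobox factor, by 3.73 ± 0.13 and CBR1, a carbonyl reductase, by 5.45 ± 0.13. With probe sets averaged the differences were 2.02 for NOTCH4, 1.86 for ADRB1 and 2.99 for HLF. The genes of this paragraph and the one before it were named after the calls over line means were seen.

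The largest rise over neighbouring genes lay near the tip of chromosome 9. In the order of the RefSeq gene table, the 15 measured genes from SLC1A1 to RIC1 held 13 called higher and 0 lower, with 12 above every other array and a median difference of 2.22. This was the highest median among 19363 windows of 15 neighbours, whose 99th percentile was 0.58. JAK2 read 9.47 and 10.20 in HDLM2 and 6.57 to 9.48 (median 7.58) in the other arrays, a difference of 1.93 ± 0.20 (adjusted p = 1.03e-04), and L1236 (9.48) reached the lower of the HDLM2 arrays. CD274, which encodes PD-L1, read 12.28 and 12.84 in HDLM2 and 6.92 to 10.73 (median 8.83) in the other arrays, a difference of 3.79 ± 0.22 (adjusted p = 3.54e-06). PDCD1LG2, which encodes PD-L2, read 9.48 and 10.28 in HDLM2 and 5.30 to 8.16 (median 5.81) in the other arrays, a difference of 3.75 ± 0.26 (adjusted p = 9.31e-06). Both ligands of the inhibitory receptor PD-1 were above every other Hodgkin array.

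The rise was not limited to immune genes in that stretch. PLPP6, CDC37L1 and AK3, a lipid phosphatase, a cochaperone and a mitochondrial adenylate kinase, differed by 2.23 ± 0.18, 2.22 ± 0.17 and 2.23 ± 0.12. RIC1, a regulator of Golgi transport, differed by 2.25 ± 0.15 and PLGRKT, a plasminogen receptor, by 2.32 ± 0.18. RCL1, a ribosome biogenesis factor, differed by 1.52 ± 0.14 and SPATA6L by 1.99 ± 0.13 (0.71 with probe sets averaged). The differences of these 7 genes ran from 1.52 to 2.32, while SLC1A1 and the PD-1 ligands rose by more. RLN2 and RLN1, the relaxin genes, differed by 1.76 ± 0.22 and 0.76 ± 0.16, and RLN1 lost its call without HDLM2 replicate 2 (0.57). Relaxin sequences are close, so these signals may not be separate. INSL6 and INSL4, of the same family and dim, were not called (-0.24 and 0.12), though INSL6 was called lower without L1236 (-0.49) or HDLM2 replicate 1 (-0.46).

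Further towards the tip the signal was mixed, and over the next genes on the other side the differences were small. In the 15 measured genes from the tip to GLIS3-AS1, 6 were called higher and 2 lower, with a median of 0.12, but most were dim. The 4 of them with a mean of at least 6 log2 rose by 1.10 to 2.73: SMARCA2 (a SWI/SNF helicase, 2.73 ± 0.15), KANK1 (a cortical actin regulator, 2.63 ± 0.25), PUM3 (1.68 ± 0.14) and RFX3 (a factor of cilia genes, 1.10 ± 0.24). Without the L540 pair SMARCA2 differed by 1.22 and RFX3 by 0.59, not called, and RFX3 was not called with all 15 arrays in the fit (adjusted p = 0.0726) or without HDLM2 replicate 2 (0.85). VLDLR, a lipoprotein receptor, read 8.67 and 10.08 in HDLM2 and 3.75 to 6.33 (median 3.87) in the other arrays, a difference of 5.07 ± 0.29 (adjusted p = 3.15e-06). DOCK8, a regulator of lymphocyte migration, differed by 1.79 ± 0.19, or 1.05 without KM-H2. From ERMP1 onwards, 15 genes held 3 called higher and 0 lower, with a median of 0.07. The 7 of them with a mean of at least 6 log2 had a median of 0.45, from -0.30 to 0.77. RANBP6, a nuclear transport gene among them, rose by 0.65 ± 0.12. Further along the arm single genes were again above every other array, among them HACD4 (3.74 ± 0.12, or 1.91 with probe sets averaged), FOCAD (1.78 ± 0.10, or 0.99 likewise) and DENND4C (1.38 ± 0.31, but 0.97 and not called without HDLM2 replicate 2), which were named after their values were seen. KANK1 differed by 1.71 without L428, its lowest line. With probe sets averaged KANK1 differed by 1.13, PUM3 by 0.87 and DOCK8 by 0.90.

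A list of 9p24 neighbours, drawn up by name, covers most of these genes, and 21 of 34 measured members were called higher and 0 lower, with a median difference of 1.42. It leaves out DMRT2 (-2.83 ± 0.14, or -1.80 with probe sets averaged) and DOCK8-AS1 (-1.13 ± 0.11, or -0.66 likewise and -0.67 without L428), the 2 genes called lower near the tip, so its count of 0 lower holds for the listed members only. GLIS3 (1.32 ± 0.58, adjusted p = 0.125), ERMP1 (0.58 ± 0.24, adjusted p = 0.105) and KDM4C (0.33 ± 0.19, adjusted p = 0.245) were among the 13 not called by limma. GLIS3, whose HDLM2 arrays were 4.63 and 7.21, and ERMP1 were called without HDLM2 replicate 1 (2.61 and 0.97), and ERMP1 also with the replicate number as a block (adjusted p = 0.00506). The 10 other uncalled members ran from DMRT1 at -0.53 to IL33 at 0.24, and DMRT1 was called lower without HDLM2 replicate 1 (-0.86). The list's median was 0.85 against L428 alone, 1.16 against L1236, 1.12 against KM-H2 and 1.71 against the L540 pair. HDLM2 was higher than each line taken singly.

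**Figure D2:**
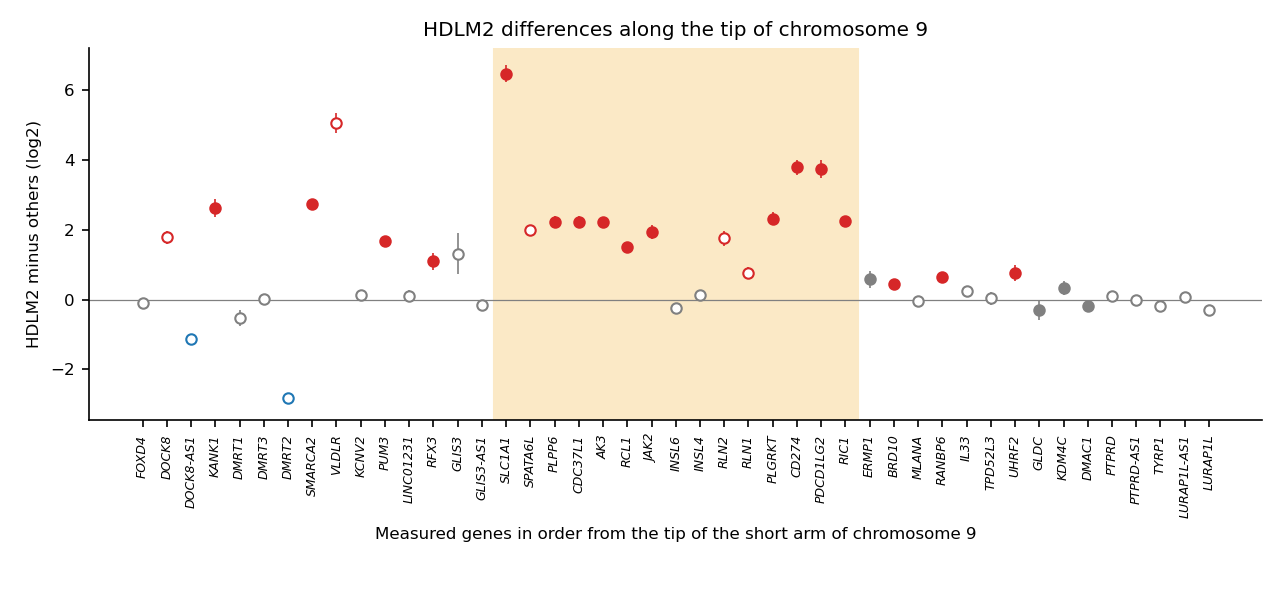
Difference between HDLM2 and the mean of the 4 other lines (log2, vertical axis, bars are standard errors) for measured genes in order from the tip of chromosome 9 (horizontal axis). Red is called higher, blue called lower, grey not called, open symbols have a mean below 6 log2, and the shaded stretch from SLC1A1 to RIC1 holds 13 genes called higher and 0 called lower.

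SOWAHC and SEPTIN10 had no such neighbourhood. The 15 measured genes centred on SOWAHC had a median difference of -0.15, and those centred on SEPTIN10 -0.12, with the pair as the only 2 genes called higher in each. In the wider list of 2q13 neighbours, 4 of 30 measured members were called higher and 8 lower, with a median difference of 0.02. Beyond the pair, SLC20A1, a phosphate transporter, read 12.45 and 12.34 against 10.63 to 11.97 (median 11.43), a difference of 1.0 ± 0.11 (adjusted p = 1.27e-04). IL1A, the interleukin 1 alpha gene, differed by -1.07 ± 0.20 (adjusted p = 0.00358), but by -0.43, not called, on the most variable probe set. In the septin family, 5 of 11 measured members were called higher and 2 lower, with a median difference of -0.02. SEPTIN11 differed by 1.75 ± 0.11 (0.84 with probe sets averaged), but the L540 pair alone was dim at 4.2, and without it the difference was 0.24 and not called. SEPTIN9 differed by -1.04 ± 0.13 (-0.48 with probe sets averaged), and SEPTIN3 by 0.76 ± 0.18 (0.45, not called, without HDLM2 replicate 1). SEPTIN1 (-0.86 ± 0.30, adjusted p = 0.0597), SEPTIN4 (-0.02), SEPTIN6 (-0.41) and SEPTIN7 (-0.20) were not called. SEPTIN1 was called with the replicate number as a block (adjusted p = 0.00496), without the L540 pair (-1.12), L428 replicate 1 (-0.99) or HDLM2 replicate 2 (-1.36), and SEPTIN6 without KM-H2 (-0.76), L428 (-0.58), L540Cy (-0.55) or L1236 replicate 2 (-0.48). The other calls, SEPTIN12, SEPTIN8 and SEPTIN2, were under 0.5 log2 in size (0.39, 0.42 and -0.45). SEPTIN8 and SEPTIN2 were not called without L428 (0.28 and -0.22), SEPTIN2 also without HDLM2 replicate 1 (-0.31), and SEPTIN12 after quantile normalization (0.33) and without L1236 (0.33) or either HDLM2 array (0.34 and 0.44). SEPTIN2 was not called on the most variable probe set (-0.33) or with L540 and L540Cy as separate lines (-0.34), which put SEPTIN11 at 2.66. SEPTIN8 was not called without the L540 pair (0.13) or with all 15 arrays in the fit (adjusted p = 0.132), and differed by 0.68 without KM-H2, 0.83 with probe sets averaged and 1.61 on the most variable probe set.

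**Figure D3:**
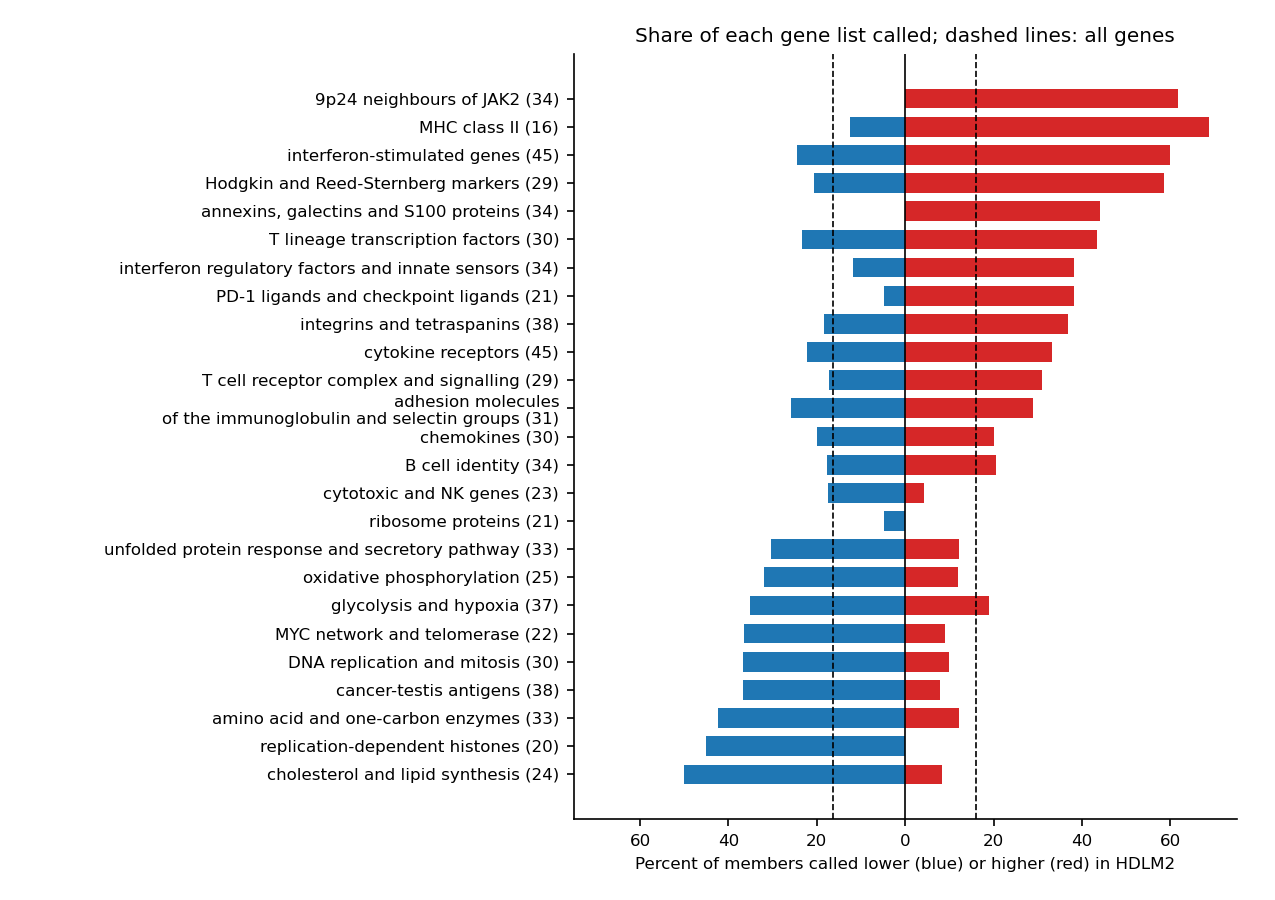
Percent of the measured members of 25 gene lists (number of members in brackets, vertical axis) called lower (blue, left) or higher (red, right) in HDLM2 on the horizontal axis, with dashed lines at the shares over all genes, 16.3% and 16.0%. MHC class II and the 9p24 neighbours have the longest red bars, at 68.8% and 61.8%, and cholesterol synthesis the longest blue bar, at 50%.

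Among the chemokines in the list of Hodgkin and Reed-Sternberg markers, CCL22 and CCL17 were highest in HDLM2 and CCL5 was lowest. CCL22, a ligand of CCR4 on helper and regulatory T cells, read 11.68 and 12.19 in HDLM2 and 5.80 to 8.35 (median 6.51) in the other arrays, a difference of 5.19 ± 0.38 (adjusted p = 1.51e-05). CCL17, the other CCR4 ligand, read 14.55 and 14.47 in HDLM2 and 6.20 to 13.66 (median 10.79) in the other arrays, a difference of 4.14 ± 0.20 (adjusted p = 1.47e-06). CCL17 came close to the top of the signal scale, and L428 and L1236 were also bright, at 12.76 and 13.22. CXCL12, the ligand of CXCR4, differed by 2.63 ± 0.27 (adjusted p = 1.10e-04), or 5.20 on the most variable probe set. CX3CL1, a membrane-bound chemokine, differed by 3.15 ± 0.16 (adjusted p = 1.90e-06). In the opposite direction, CCL5, a chemokine of activated T cells, read 8.54 and 7.73 in HDLM2 and 9.68 to 12.84 (median 11.72) in the other arrays, a difference of -3.30 ± 0.26 (adjusted p = 2.35e-05). CXCL10, an interferon-induced ligand of CXCR3, read 5.37 and 4.53 in HDLM2 and 4.77 to 12.52 (median 9.72) in the other arrays, a difference of -4.24 ± 0.26 (adjusted p = 4.59e-06). For CXCL10, HDLM2 overlapped the L540 pair (4.90), while L428, L1236 and KM-H2 were brighter (7.67, 12.01 and 12.18). Of 30 chemokines measured, 6 were called higher and 6 lower, a share of 20% each against 16.0% and 16.3% over all genes.

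Among type 2 cytokines, IL13, an autocrine growth factor of Hodgkin cells, read 10.93 and 10.20 in HDLM2 and 5.59 to 8.60 (median 6.27) in the other arrays, a difference of 3.89 ± 0.22 (adjusted p = 3.54e-06). IL4, which shares a receptor chain with IL13, read 6.95 and 7.23 in HDLM2 and 3.71 to 6.89 (median 3.92) in the other arrays, a difference of 2.55 ± 0.20 (adjusted p = 2.13e-05). Both were above every other array, IL4 narrowly so over L1236. Of 10 type 2 cytokines measured, however, 2 were called higher and 3 lower (20% and 30%), with a median difference of 0.06. Only 1 of the 10 had a mean of at least 6 log2. The receptor chain IL13RA1 read 11.25 and 11.75 in HDLM2 and 4.63 in the L540 pair, a difference of 2.65 ± 0.18 (adjusted p = 8.31e-06), or 1.25 without that pair. IL21, a cytokine of helper T cells, differed by -1.41 ± 0.14 (adjusted p = 6.95e-05), with KM-H2 and the L540 pair brighter and L428 and L1236 as dim as HDLM2, and by -0.93 and -0.92 without each. IL2RA, the CD25 chain of the interleukin 2 receptor, read 11.48 and 12.03 in HDLM2 and 6.05 to 11.29 (median 7.15) in the other arrays, a difference of 3.76 ± 0.31 (adjusted p = 2.69e-05). IL3RA, the interleukin 3 receptor alpha chain, differed by 2.80 ± 0.15 (adjusted p = 2.55e-06). IL6R differed by 3.63 ± 0.23 (adjusted p = 5.49e-06) and overlapped the L540 pair. Of 45 cytokine receptors, 15 were called higher and 10 lower, 33.3% and 22.2%.

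In the JAK and STAT list, 5 of 9 measured members were called higher and 2 lower, with a median difference of 0.46. Against single lines the median was 0.08 for L428, 0.35 for L1236, 0.10 for KM-H2 and 0.07 for the L540 pair. Of the 9 members, 0 lay above every other array and 1 below. JAK2 rose most, as given above. JAK1 differed by 0.72 ± 0.11 (adjusted p = 0.00119) and JAK3 by 0.74 ± 0.13 (adjusted p = 0.00198). STAT4, which relays interleukin 12, read 4.98 and 4.23 in HDLM2 and 5.65 to 10.32 (median 6.68) in the other arrays, a difference of -2.80 ± 0.26 (adjusted p = 6.12e-05). STAT4 was below every other array, L428 being the highest line, and differed by -1.84 without L428. STAT5B differed by 0.84 ± 0.22 (adjusted p = 0.017) and STAT3 by 0.46 ± 0.10 (adjusted p = 0.00578). STAT3 differed by 0.30 with L540 and L540Cy as separate lines. It lost its call with probe sets averaged (0.24), without L1236 (0.13), without KM-H2 (0.13) and with all 15 arrays in the fit (adjusted p = 0.194), and differed by 0.85 and 0.73 without L428 and the L540 pair. STAT6, the factor of interleukin 4 and 13, differed by -0.41 ± 0.14 (adjusted p = 0.0481). Its call was lost with L540 and L540Cy as separate lines (-0.36), with all 15 arrays in the fit (adjusted p = 0.0584), without L428, without L1236, without the array of L540, and without any 1 array of HDLM2, L428 or L1236 or replicate 2 of KM-H2, with values from -0.50 to -0.22, and its difference was -0.63 without KM-H2. STAT5A (-0.40 ± 0.16, adjusted p = 0.0865) and TYK2 (0.05 ± 0.13, adjusted p = 0.835) were not called by limma. STAT5A was called with the replicate number as a block (adjusted p = 0.0448) and without KM-H2 (-0.57), L1236 (-0.57) or L1236 replicate 1 (-0.47). JAK1 and JAK3 differed by 0.40 and 0.31 with probe sets averaged, and JAK3 by 0.44, not called, without L428 and 1.13 without KM-H2. STAT5B differed by 0.46 with probe sets averaged and lost its call on the most variable probe set (0.48) and without L1236 (0.67) or HDLM2 replicate 2 (0.48).

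Genes known to answer to STAT factors went both ways: 5 of 24 measured members were called higher and 6 lower, with a median difference of -0.07. FCER2, the CD23 receptor that interleukin 4 induces, read 9.70 and 9.53 in HDLM2 and 5.24 to 8.68 (median 7.09) in the other arrays, a difference of 2.72 ± 0.19 (adjusted p = 1.21e-05). BCL6, a repressor of germinal centre cells, read 10.92 and 10.77 in HDLM2 and 4.98 to 10.69 (median 9.19) in the other arrays, a difference of 2.30 ± 0.24 (adjusted p = 1.05e-04). CISH, a feedback inhibitor of STAT5, read 12.08 and 12.49 in HDLM2 and 7.11 to 12.25 (median 11.17) in the other arrays, a difference of 1.89 ± 0.20 (adjusted p = 1.18e-04). FCER2 and BCL6 were above every other Hodgkin array, CISH only partly. These 3 genes hold TTCNNNGAA, and no other of the list's 19 genes with a window does (15.8%). Of 22 chemokine genes with a window, 6 hold the same letters (27.3%), and of these 0 were called higher and 1 lower. Of 8 type 2 cytokine genes with a window, 2 hold them (25%), with 0 called higher and 0 lower. BCL6 had its lowest line in L1236 and differed by 1.22 without it and 1.34 with probe sets averaged, and CISH differed by 0.83 without KM-H2. SOCS3, another feedback inhibitor, differed by 1.72 ± 0.29 (adjusted p = 0.00166) and overlapped the L540 pair (0.94 with probe sets averaged). LRRC32, the anchor of latent TGF-beta, differed by -1.89 ± 0.18 (adjusted p = 6.74e-05).

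In the list of Hodgkin and Reed-Sternberg markers, 17 of 29 measured members were called higher and 6 lower, with a median difference of 0.83. Besides the chemokines, IL13 and TNFRSF8, LTA, which encodes lymphotoxin alpha, read 12.24 and 12.24 against 8.26 to 12.41 (median 9.86), a difference of 2.13 ± 0.23 (adjusted p = 1.33e-04), with L1236 equally bright. CD70, a costimulatory ligand of the TNF family, read 7.74 and 7.66 in HDLM2 and 8.02 to 11.89 (median 10.46) in the other arrays, a difference of -2.57 ± 0.10 (adjusted p = 4.28e-07). Both arrays of HDLM2 were below all 8 others for CD70 and for CCL5, so the rise of the list was not uniform. BCL2A1, an NF-kB target that blocks cell death, differed by -2.43 ± 0.40 (adjusted p = 0.00148), by -1.47 without KM-H2 and by -1.62 without HDLM2 replicate 1. This list was drawn up with these lines known, so its direction is not independent evidence.

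**Figure D4:**
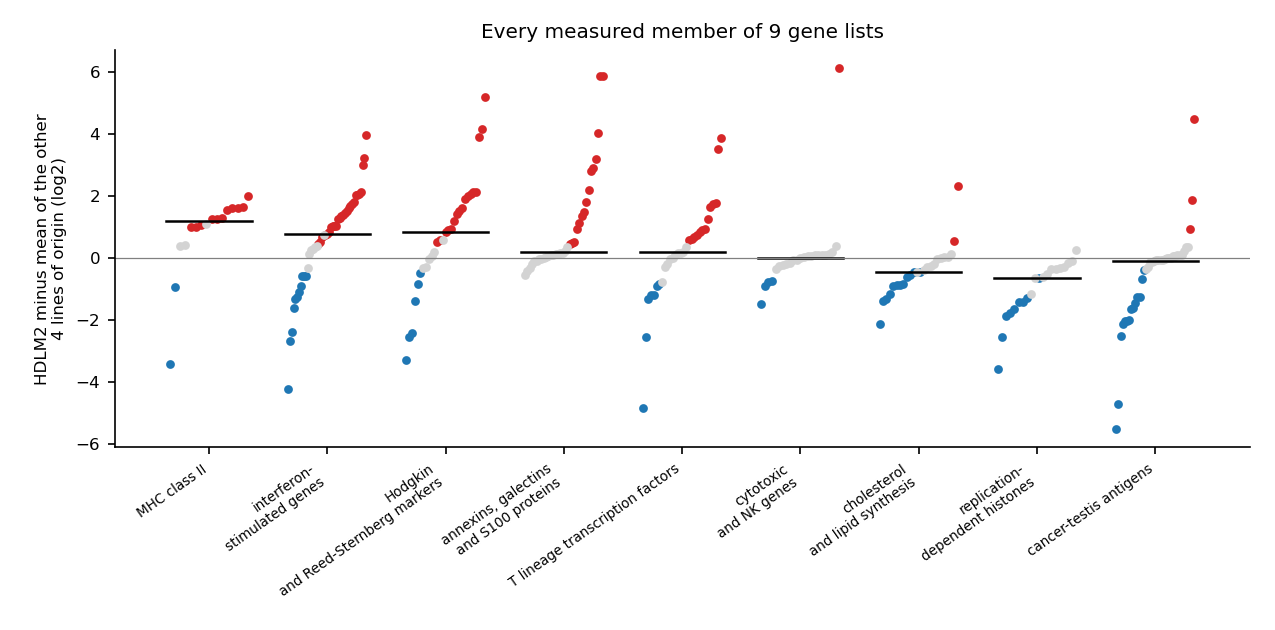
Difference between HDLM2 and the mean of the 4 other lines (log2, vertical axis) for every measured member of 9 gene lists (horizontal axis), members sorted by value, red called higher, blue called lower, grey not called, black bar the list median. The medians run from 1.17 for MHC class II to -0.66 for the histones, and PRF1, at 6.11, is the only red point among cytotoxic genes.

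Antigen presentation by MHC class II was high in HDLM2: 11 of 16 measured members were called higher and 2 lower, with a median difference of 1.17. HLA-DRA, the invariant alpha chain of HLA-DR, read 13.93 and 13.98 in HDLM2 and 10.69 to 13.63 (median 12.55) in the other arrays, a difference of 1.61 ± 0.12 (adjusted p = 1.70e-05). HLA-DPB1 read 13.19 and 13.08 in HDLM2 and 9.95 to 12.91 (median 11.75) in the other arrays, a difference of 1.65 ± 0.11 (adjusted p = 9.72e-06). CD74, the invariant chain that guides class II molecules, differed by 1.26 ± 0.14 (adjusted p = 1.34e-04), or 2.41 on the most variable probe set. HDLM2 was above every other Hodgkin array for HLA-DRA and HLA-DPB1, with KM-H2 next and L1236 lowest. The list's median was 0.34 against KM-H2 and 2.15 against L1236. HLA-DMA and HLA-DMB, the peptide exchange factors, differed by 1.55 ± 0.14 and 1.29 ± 0.14. CIITA, the master activator of the class, differed by 0.42 ± 0.15 (adjusted p = 0.0735) and was not called, but it was called with the replicate number as a block (adjusted p = 0.0227) and without KM-H2 (0.78), L540Cy (0.49) or HDLM2 replicate 2 (0.67). RFXANK, a subunit of the factor that binds class II promoters, read 9.06 and 8.88 in HDLM2 and 9.62 to 10.22 (median 9.93) in the other arrays, a difference of -0.94 ± 0.11 (adjusted p = 2.59e-04). The other member called lower, HLA-DQA1, differed by -3.43 ± 0.13 with its brightest probe set but by 3.27 with the mean of its probe sets and 7.84 with the most variable, so its direction depends on the probe set. HLA genes differ in sequence between people, and a probe set can miss an allele.

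MHC class I genes moved less: 9 of 24 measured members were called higher and 5 lower, with a median difference of 0.27. HLA-B differed by 0.59 ± 0.13, not called without L1236 (0.26) or HDLM2 replicate 2 (0.51), and B2M, the shared light chain, by 0.32 ± 0.11 (adjusted p = 0.0569, or 0.0321 with the replicate number as a block). B2M was called without KM-H2 (0.40), the L540 pair (0.38), the array of L540 (0.35) or L428 replicate 2 (0.36). NLRC5, the activator of class I genes, read 5.26 and 5.43 in HDLM2 and 7.42 to 8.43 (median 7.97) in the other arrays, a difference of -2.55 ± 0.11 (adjusted p = 8.49e-07). PSMB10, a subunit of the immunoproteasome, read 9.19 and 8.82 in HDLM2 and 10.02 to 10.88 (median 10.57) in the other arrays, a difference of -1.54 ± 0.13 (adjusted p = 2.65e-05). HDLM2 was below every other array for both, while TAPBP, the tapasin that loads peptides, was above every other array at 0.75 ± 0.10 (0.43, not called, with probe sets averaged). ULBP2, a ligand of the killer receptor NKG2D, read 9.39 and 9.18 in HDLM2 and 5.29 to 8.63 (median 7.12) in the other arrays, a difference of 2.30 ± 0.16 (adjusted p = 1.0e-05). MICA, another ligand of that receptor, differed by -0.89 ± 0.15 (adjusted p = 0.00155).

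Among ligands of checkpoint receptors, 8 of 21 measured members were called higher and 1 lower, with a median difference of 0.12. After CD274 and PDCD1LG2, the costimulators CD80 and CD86 differed by 1.91 ± 0.16 (adjusted p = 2.77e-05) and 1.42 ± 0.16 (adjusted p = 1.49e-04). HDLM2 overlapped L1236 for both, and the differences were 1.02 for CD80 without the L540 pair and 0.82 for CD86 without KM-H2. CD80 differed by 0.65 with probe sets averaged. CD86 was not called when all 15 arrays entered the fit (adjusted p = 0.344). CD200, a ligand that inhibits myeloid cells, was the 1 member called lower: it read 4.22 and 4.15 in HDLM2 and 5.34 to 11.78 (median 8.42) in the other arrays, a difference of -4.02 ± 0.20 (adjusted p = 1.44e-06). Of 16 members with a window, CD274 alone holds TTCNNNGAA.

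Interferon-stimulated genes were split, and 27 of 45 measured members were called higher and 11 lower, with a median difference of 0.76. GBP1, a guanylate-binding protein that attacks vacuoles of pathogens, read 11.11 and 11.32 in HDLM2 and 4.99 to 8.95 (median 7.36) in the other arrays, a difference of 3.96 ± 0.34 (adjusted p = 3.53e-05). HERC5, the ligase of the ubiquitin-like protein ISG15, read 10.91 and 10.90 in HDLM2 and 4.08 to 10.54 (median 8.86) in the other arrays, a difference of 3.0 ± 0.12 (adjusted p = 5.22e-07). Both were above every other Hodgkin array, HERC5 by little over the L540 pair, and without KM-H2 its difference was 1.77. HERC6 differed by 3.23 ± 0.13 (adjusted p = 4.69e-07), or 1.66 with probe sets averaged, and was as high in L428 (8.97). GBP2 differed by 2.12 ± 0.20 (adjusted p = 5.98e-05) and overlapped the L540 pair. Against these, MX2, an antiviral GTPase, read 5.36 and 5.38 in HDLM2 and 5.25 to 9.81 (median 8.28) in the other arrays, a difference of -2.70 ± 0.14 (adjusted p = 2.36e-06). TRIM22, an antiviral ligase, differed by -2.39 ± 0.41 (adjusted p = 0.00207) and IFI44L by -1.64 ± 0.24 (adjusted p = 7.55e-04), or -0.96 without the array of L540. CXCL10, given above, fell most. None of the 11 lower members was below every other array, whereas 11 of the 27 higher ones lay above all of them.

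Of the 35 interferon-stimulated genes with a window, 25 hold the GAAA pair 2 bases apart (71.4%). Over all windows, counted singly rather than by gene, the share was 3.57%. Of these 25 genes, 14 were called higher and 6 lower, with a median of 0.73. Of the 10 without it, 7 were called higher and 1 lower, with a median of 0.83. The letters shown above for GBP1 and CXCL10 sit in genes at opposite ends of the list.

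Sensors of the innate system included several genes that stood clear. PYCARD, the adaptor that joins inflammasomes to caspase 1, read 9.95 and 9.82 in HDLM2 and 4.13 to 8.73 (median 5.26) in the other arrays, a difference of 3.98 ± 0.12 (adjusted p = 1.34e-07). STING1, the sensor of cyclic dinucleotides, read 12.01 and 12.08 in HDLM2 and 8.05 to 10.90 (median 9.60) in the other arrays, a difference of 2.63 ± 0.15 (adjusted p = 3.54e-06). TLR3, which detects double-stranded RNA, read 8.0 and 8.48 in HDLM2 and 3.79 to 6.59 (median 4.80) in the other arrays, a difference of 3.31 ± 0.17 (adjusted p = 1.95e-06). All 3 were above every other Hodgkin array. NLRP3, an inflammasome sensor, differed by 2.47 ± 0.32 (adjusted p = 3.73e-04), or 0.80 with probe sets averaged. In the list, 13 of 34 measured members were called higher and 4 lower, with a median difference of 0.04, NLRC5 being the largest fall. IRF8, a factor of B and myeloid cells, differed by -1.88 ± 0.38 (adjusted p = 0.00468), but its HDLM2 arrays disagreed (7.23 and 5.34), and the difference was -2.82 without replicate 1, -0.94 without replicate 2 and -1.24, not called, without L428. IRF8 was not called with all 15 arrays in the fit (adjusted p = 0.195).

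A few genes of T cells were far higher in HDLM2, while the median of the list was near 0. Of the T cell receptor list, 9 of 29 measured members were called higher and 5 lower, with a median difference of -0.02. LAG3 and CD2 led. CD247, the zeta chain of the T cell receptor, read 9.98 and 10.40 in HDLM2 and 5.41 to 10.50 (median 5.65) in the other arrays, a difference of 3.42 ± 0.14 (adjusted p = 5.47e-07). HDLM2 and the L540 pair (10.35) were alike for CD247, far above L428, L1236 and KM-H2, and averaging the probe sets gave 1.69. The CD3 chains were dim: CD3E read 5.13 and 4.95 and CD3G 4.78 and 4.08 in HDLM2, overlapping the other arrays (5.01 to 5.58 (median 5.28) and 4.30 to 4.95 (median 4.65)), and neither was called, although CD3E (-0.29 ± 0.13, adjusted p = 0.148 in limma) reached adjusted p = 0.0462 with the replicate number as a block and CD3G was called without HDLM2 replicate 1 (-0.55). CD3D (-0.81 ± 0.15) was called lower, with KM-H2 brightest at 8.60, and without KM-H2 the difference was -0.08. With all 15 arrays in the fit CD3D was not called (adjusted p = 0.061). CD5 read 6.70 and 6.49 and was not called. CD4 read 6.20 and 6.34 against 10.10 in KM-H2 and 10.52 in the L540 pair, a difference of -2.01 ± 0.13 (adjusted p = 7.66e-06). CD4 differed by -0.98 with probe sets averaged and -1.26 without the L540 pair. THEMIS, a T cell development protein, differed by 3.24 ± 0.18 (adjusted p = 2.53e-06), with L428 brighter still, and by 4.89, 2.07 and 1.99 without L428, L1236 and the L540 pair.

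Transcription factors of T cells were called often, in both directions: 13 of 30 measured members were called higher and 7 lower, with a median difference of 0.17. IKZF4, the Ikaros family factor Eos of regulatory T cells, read 10.98 and 9.95 in HDLM2 and 5.49 to 8.80 (median 7.01) in the other arrays, a difference of 3.51 ± 0.28 (adjusted p = 2.27e-05). TOX2 differed by 3.87 ± 0.44 (adjusted p = 1.77e-04), its relative TOX by -4.84 ± 0.25 (adjusted p = 2.20e-06), so HDLM2 was high for one and low for the other. IKZF2, the Helios relative of IKZF4, read 4.18 and 4.07 in HDLM2 and 3.57 to 8.47 (median 7.35) in the other arrays, a difference of -2.57 ± 0.14 (adjusted p = 2.45e-06). MAF, a factor of type 2 helper cells, differed by 1.74 ± 0.21 (adjusted p = 2.28e-04) and overlapped KM-H2. NFATC2, a calcium-dependent factor, differed by 1.76 ± 0.21 (adjusted p = 2.42e-04) and by 1.01 without the L540 pair. The means of all probe sets were -2.71 for TOX, -0.95 for IKZF2, 0.88 for MAF and 1.12 for NFATC2. TBX21, the factor of type 1 helper cells, differed by 1.65 ± 0.16. The shares called, 43.3% higher and 23.3% lower, were both above those of all genes.

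Perforin was the only cytotoxic gene called higher. Of 23 measured genes of killer cells, 1 was called higher and 4 lower, below the background of 16.0% for rises. The granulysin gene GNLY read 5.22 and 4.99 and the lectin KLRD1 4.57 and 5.11 in HDLM2, both dim and not called. NKG7, a granule membrane protein, read 6.30 and 6.35 in HDLM2 and 11.69 in the L540 pair, and its difference of -0.26 ± 0.11 was not called (adjusted p = 0.102), but without the L540 pair it was 1.44 and called, L428, L1236 and KM-H2 being at 4.61 to 4.98. Without L428, L1236, KM-H2 or the array of L540 it was called lower, at -0.92 to -0.37. GZMA, the granzyme A gene, differed by -0.80 ± 0.13 (adjusted p = 0.00141), and without the L540 pair, its highest line, by -0.35, not called (and by -0.44 without L540Cy). HDLM2 was bright for PRF1 and dim for GNLY and NKG7, whereas the L540 pair was bright for NKG7 and dim for PRF1 (6.5).

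Genes of the B cell receptor and CD20 were dim in HDLM2. CD79A read 5.97 and 6.16, CD79B 5.34 and 5.66 and MS4A1, which encodes CD20, 4.58 and 3.96. The non-Hodgkin arrays read 10.81 to 11.85 for CD79A and 11.14 to 11.82 for CD79B. None of the 3 was called. In the list, 7 of 34 measured members were called higher and 6 lower, with a median difference of 0.01. SPIB, an ETS factor of B cells and plasmacytoid dendritic cells, read 10.13 and 10.59 in HDLM2 and 5.04 to 10.06 (median 7.70) in the other arrays, a difference of 2.75 ± 0.13 (adjusted p = 1.18e-06). EBF1, an early B cell factor, read 8.81 and 8.85 in HDLM2 and 4.83 to 8.98 (median 6.46) in the other arrays, a difference of 2.16 ± 0.15 (adjusted p = 1.03e-05), with KM-H2 as bright (8.73). FCER2 was the other large rise. BCL11A, a zinc finger factor of B cells, read 5.05 and 4.51 in HDLM2 and 4.31 to 11.09 (median 9.97) in the other arrays, a difference of -4.09 ± 0.15 (adjusted p = 3.33e-07). HDLM2 and the L540 pair (4.42) were both low for BCL11A, against 9.60 to 11.08 in the other lines. BLK, a B cell kinase, differed by -1.66 ± 0.24 (adjusted p = 6.76e-04), and by -1.05 without the L540 pair. Means of all probe sets were 1.29 for EBF1 and -0.87 for BLK. The macrophage gene LYZ read 4.21 and 4.12 in HDLM2. In the list of myeloid and dendritic markers, 5 of 29 measured members were called higher and 7 lower (17.2% and 24.1%), with a median difference of 0.06. The lists of fibroblast, mast cell and erythroid markers held 4, 2 and 1 higher calls of 20, 21 and 14 members. Their lower calls were 2, 3 and 1.

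Among calcium- and sugar-binding proteins every call was a rise. Of annexins, galectins and S100 proteins, 15 of 34 measured members were called higher and 0 lower, with a median difference of 0.18. S100A6, calcyclin, read 12.41 and 12.55 in HDLM2 and 4.80 to 11.98 (median 8.52) in the other arrays, a difference of 4.02 ± 0.10 (adjusted p = 5.47e-08). S100A11 differed by 2.90 ± 0.10 (adjusted p = 2.76e-07), or 1.19 without L1236, and S100P by 2.79 ± 0.16 (adjusted p = 3.23e-06). ANXA2, a membrane-binding annexin that pairs with S100A10, differed by 2.17 ± 0.15 (adjusted p = 9.84e-06), and S100A10 itself by 1.35 ± 0.16 (adjusted p = 2.54e-04), or 0.37 without L1236 and 0.66 with probe sets averaged. LGALS8, galectin-8, read 9.01 and 9.36 in HDLM2 and 4.41 to 8.81 (median 4.72) in the other arrays, a difference of 3.19 ± 0.18 (adjusted p = 3.11e-06). ANXA1 differed by 1.79 ± 0.30 (0.89 with probe sets averaged) and ANXA11 by 1.49 ± 0.11. S100A6 was nearly as bright in L428 (11.97) and the L540 pair (11.87), and with probe sets averaged its difference was 2.18. The median of the family was 0.18, and 19 members were not called. LGALS3 and S100A4, given above, rose most.

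Adhesion molecules moved in both directions. Of the immunoglobulin and selectin groups, 9 of 31 measured members were called higher and 8 lower, with a median difference of 0.11. ICAM3, a ligand of the integrin LFA-1, read 10.67 and 10.98 in HDLM2 and 4.70 to 9.26 (median 6.33) in the other arrays, a difference of 4.22 ± 0.27 (adjusted p = 7.15e-06). SELPLG, the P-selectin ligand, read 10.97 and 10.94 in HDLM2 and 5.90 to 8.40 (median 6.58) in the other arrays, a difference of 4.09 ± 0.29 (adjusted p = 1.17e-05). VCAM1, the ligand of integrin alpha 4 beta 1, read 10.58 and 9.92 in HDLM2 and 4.03 to 9.52 (median 6.87) in the other arrays, a difference of 3.45 ± 0.17 (adjusted p = 1.81e-06). HDLM2 was above all other arrays for all 3. CD44, the hyaluronan receptor, differed by 3.07 ± 0.20, with 1.38 without the L540 pair, MCAM by 3.08 ± 0.11 and CD99 by 2.87 ± 0.14. With probe sets averaged CD44 differed by 1.15 and MCAM by 1.58. CD48, a ligand of CD2, read 5.61 and 4.88 in HDLM2 and 5.70 to 11.76 (median 9.13) in the other arrays, a difference of -3.70 ± 0.38 (adjusted p = 1.08e-04), or -2.18 with probe sets averaged. HDLM2 was high for CD2 and low for CD48.

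Integrin chains changed in both directions. In the list with tetraspanins, 14 of 38 measured members were called higher and 7 lower, with a median difference of 0.08. ITGA4 and ITGAE fell, as above, while ITGB1, the beta 1 chain, differed by 1.59 ± 0.12 (adjusted p = 2.09e-05), or 0.64 without L1236 and 0.67 with probe sets averaged. ITGAM, the alpha chain of the complement receptor Mac-1, differed by 2.06 ± 0.26 (adjusted p = 3.16e-04), or 1.07 with probe sets averaged, and KM-H2 was as bright (7.52). ITGB7, a partner of both ITGA4 and ITGAE, differed by 0.04 ± 0.17 and was not called (adjusted p = 0.898). TSPAN7, a tetraspanin, read 9.89 and 10.37 in HDLM2 and 6.39 to 8.12 (median 7.24) in the other arrays, a difference of 2.92 ± 0.20 (adjusted p = 9.44e-06). TSPAN13 differed by -2.49 ± 0.18 (adjusted p = 1.43e-05), with the L540 pair lower than HDLM2. In the cytoskeleton list, 13 of 39 measured members were called higher and 9 lower, with a median difference of 0.07. TUBB2A, a beta tubulin, differed by 1.71 ± 0.16 (adjusted p = 6.41e-05) and MYH10, nonmuscle myosin IIB, by -2.78 ± 0.16 (adjusted p = 3.95e-06). TUBB2A was above and MYH10 below every other array.

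Biosynthetic genes leaned lower. In cholesterol and lipid synthesis, 2 of 24 measured members were called higher and 12 lower, with a median difference of -0.46. FASN, fatty acid synthase, read 8.36 and 8.55 in HDLM2 and 9.18 to 10.38 (median 9.90) in the other arrays, a difference of -1.41 ± 0.13 (adjusted p = 5.56e-05). HMGCS1, which makes the precursor of mevalonate, read 9.07 and 8.94 in HDLM2 and 8.26 to 11.53 (median 10.42) in the other arrays, a difference of -1.32 ± 0.12 (adjusted p = 5.10e-05), but its most variable probe set was not called (-1.18, adjusted p = 0.0839). INSIG1, the sterol sensor partner that the same pathway induces, differed by -1.16 ± 0.11 (adjusted p = 5.41e-05). For FASN HDLM2 was below every other array, but it overlapped the L540 pair for HMGCS1 (8.98). The list's median was -0.07 against the L540 pair and between -0.62 and -0.47 against the other lines. ACSL4, an acyl-CoA synthetase, differed by -2.15 ± 0.36 (adjusted p = 0.00178), or -1.37 without HDLM2 replicate 1. FASN differed by -0.71 with probe sets averaged. The 2 members called higher were ABCG1 and ACSL1. ABCG1, a cholesterol exporter, read 7.49 and 7.88 in HDLM2 and 5.17 to 5.58 (median 5.43) in the other arrays, a difference of 2.30 ± 0.12 (adjusted p = 2.27e-06), or 5.15 on the most variable probe set. ACSL1, an acyl-CoA synthetase like ACSL4, differed by 0.53 ± 0.10 (adjusted p = 0.00345), by 0.84 without L428 and by 0.86 if its most variable probe set was taken, and was not called without KM-H2 (0.18) or with all 15 arrays in the fit (adjusted p = 0.0506).

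Amino acid and one-carbon enzymes also leaned lower: 4 of 33 measured members were called higher and 14 lower, with a median difference of -0.32. GSS, glutathione synthetase, read 8.48 and 8.86 in HDLM2 and 9.28 to 11.21 (median 10.09) in the other arrays, a difference of -1.46 ± 0.13 (adjusted p = 4.47e-05). SHMT2 and PHGDH, enzymes of mitochondrial one-carbon flow and of serine synthesis, differed by -1.32 ± 0.14 and -1.18 ± 0.13, but PHGDH by -0.05, not called, without L428. ARG2, mitochondrial arginase, read 5.08 and 5.54 in HDLM2 and 6.47 to 10.59 (median 8.40) in the other arrays, a difference of -3.19 ± 0.21 (adjusted p = 7.69e-06). In tryptophan breakdown, TDO2 rose while KMO and KYNU, later enzymes of the kynurenine route, differed by -1.82 ± 0.21 and -1.33 ± 0.11, and IDO1, which does the same step as TDO2, by -0.37 ± 0.19 (adjusted p = 0.205, or 0.0406 with the replicate number as a block). HDLM2 was high for the entry enzyme TDO2 and low for the enzymes after it, though KYNU differed by -0.56 without KM-H2 and -3.76 on the most variable probe set. GLUL, glutamine synthetase, read 11.08 and 12.01 in HDLM2 and 3.71 to 10.12 (median 4.05) in the other arrays, a difference of 5.28 ± 0.21 (adjusted p = 4.69e-07), or 2.81 with probe sets averaged. BCAT1 differed by 1.31 ± 0.16 (adjusted p = 2.64e-04) and was not called when all 15 arrays entered the fit (adjusted p = 0.643). ARG2 differed by -1.80 with probe sets averaged, and KMO by -1.17 without L1236.

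Glycolysis and the hypoxia response were mixed, and 7 of 37 measured members were called higher and 13 lower, with a median difference of -0.24. PFKM, a phosphofructokinase, read 7.48 and 7.44 in HDLM2 and 8.37 to 11.49 (median 10.60) in the other arrays, a difference of -2.80 ± 0.12 (adjusted p = 6.81e-07). HIF1A, the hypoxia factor, read 10.54 and 11.18 in HDLM2 and 11.93 to 12.46 (median 12.08) in the other arrays, a difference of -1.26 ± 0.16 (adjusted p = 3.55e-04). BNIP3L, a mitophagy receptor, differed by -1.83 ± 0.27 (adjusted p = 8.59e-04). These were below every other array. PFKFB3, an activator of phosphofructokinase, differed by 1.78 ± 0.24 (adjusted p = 4.80e-04) and overlapped other lines. GAPDH (0.02 ± 0.10) and LDHA (-0.11 ± 0.09) were not called. In oxidative phosphorylation, 3 of 25 measured members were called higher and 8 lower, with a median difference of -0.16. ATP5F1B and COX4I1, subunits of ATP synthase and cytochrome oxidase, differed by -0.76 ± 0.11 (adjusted p = 5.87e-04) and -0.91 ± 0.11 (adjusted p = 2.64e-04), each below every other array. SDHA, on chromosome 5, and NDUFA9 differed by 1.07 ± 0.12 (adjusted p = 1.63e-04) and 1.12 ± 0.12 (adjusted p = 1.05e-04), each above every other array.

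Several replication genes and histones were lower. In DNA replication and mitosis, 3 of 30 measured members were called higher and 11 lower, with a median difference of -0.30. MCM4, of the replicative helicase, read 8.86 and 8.76 in HDLM2 and 8.64 to 10.60 (median 10.19) in the other arrays, a difference of -1.21 ± 0.11 (adjusted p = 5.35e-05). CDT1, which licenses origins, differed by -1.19 ± 0.17 (adjusted p = 6.10e-04), and AURKB, a mitotic kinase, by -1.18 ± 0.12 (adjusted p = 1.15e-04). On the most variable probe set AURKB differed by -0.55. AURKB was lower in HDLM2 than in every other array, while MCM4 and CDT1 overlapped the L540 pair. The list's median was 0.16 against the L540 pair and -0.54 against L1236. POLE2, a polymerase subunit, rose by 0.81 ± 0.12 (adjusted p = 6.88e-04). The other members called higher were MKI67 and PLK1, both genes of dividing cells, so the list did not move as a whole. Of 20 replication-dependent histone genes, 0 were called higher and 9 lower, with a median of -0.66. H1-2, a linker histone, read 6.46 and 7.47 in HDLM2 and 8.25 to 13.84 (median 10.52) in the other arrays, a difference of -3.59 ± 0.46 (adjusted p = 3.53e-04). H2BC21 differed by -1.78 ± 0.37 (adjusted p = 0.00572) and H2AC6 by -2.55 ± 0.38 (adjusted p = 8.44e-04). The non-Hodgkin arrays read 5.42 to 6.20 for H1-2, lower than HDLM2. Histone genes share sequence and their normal messages lack a poly(A) tail, so these probe sets may not be separate.

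In the MYC network, 2 of 22 measured members were called higher and 8 lower, with a median difference of -0.27. IGF2BP1 and IGF2BP2, RNA-binding proteins that stabilise MYC and other messages, differed by -2.85 ± 0.29 (adjusted p = 1.02e-04) and -3.11 ± 0.16 (adjusted p = 2.11e-06), or by -1.58 and -1.66 with probe sets averaged. HMGA1, a chromatin protein, read 11.24 and 11.28 in HDLM2 and 12.15 to 12.75 (median 12.37) in the other arrays, a difference of -1.18 ± 0.16 (adjusted p = 5.53e-04). HDLM2 was below every other array for these 3. MYC itself read 12.61 and 11.80 against 9.99 to 12.34 (median 11.55), a difference of 0.83 ± 0.22 (adjusted p = 0.0189), and lost its call without KM-H2 (0.45) or HDLM2 replicate 1 (0.42). MXD3, a partner of the same dimer family, differed by 1.13 ± 0.12 (adjusted p = 1.18e-04).

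Few ribosome proteins were called: 0 of 21 were higher and 1 lower, with a median of -0.03. In the unfolded protein response, 4 of 33 measured members were called higher and 10 lower, with a median difference of -0.18. PPP1R15A and DDIT3, stress-induced regulators, differed by -1.95 ± 0.23 (adjusted p = 2.04e-04) and -1.48 ± 0.24 (adjusted p = 0.00139), TRIB3, a pseudokinase, by -1.92 ± 0.16 (adjusted p = 3.46e-05) and CRELD2, a chaperone partner, by -1.27 ± 0.11 (adjusted p = 3.09e-05). The 4 genes were below every other array. EDEM1, which sends misfolded glycoproteins to decay, read 11.73 and 11.29 in HDLM2 and 8.64 to 10.51 (median 9.44) in the other arrays, a difference of 2.06 ± 0.13 (adjusted p = 6.18e-06). XBP1 differed by 0.68 ± 0.15 (adjusted p = 0.00765) and lost its call with probe sets averaged (0.20), without KM-H2 (0.34) and without HDLM2 replicate 1 (0.65).

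Several metallothioneins, which bind zinc and copper, were higher. MT1E read 11.55 and 11.91 in HDLM2 and 7.47 to 8.76 (median 8.06) in the other arrays, a difference of 3.68 ± 0.17 (adjusted p = 1.11e-06). MT1F read 10.62 and 10.99 in HDLM2 and 7.73 to 8.83 (median 8.33) in the other arrays, a difference of 2.5 ± 0.15 (adjusted p = 4.34e-06). MT1X differed by 1.69 ± 0.16 (adjusted p = 5.59e-05), or 0.82 on the most variable probe set, MT2A by 1.51 ± 0.15, MT1H by 1.60 ± 0.14 and MT1G by 1.09 ± 0.13 (0.46 with probe sets averaged), whereas MT1M, MT3 and MT4 (0.17, 0.01 and -0.20) were not called. Metallothionein genes share sequence, so their probe sets may not be separate. In the whole metal list, 9 of 30 measured members were called higher and 6 lower. STEAP3, a ferrireductase, read 5.97 and 6.11 in HDLM2 and 8.10 to 12.40 (median 9.33) in the other arrays, a difference of -3.77 ± 0.11 (adjusted p = 9.71e-08). SLC39A10, a zinc importer like SLC39A3, read 6.28 and 6.29 in HDLM2 and 7.53 to 10.06 (median 8.48) in the other arrays, a difference of -2.29 ± 0.17 (adjusted p = 1.55e-05). HDLM2 was below every other array for both.

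Feedback regulators of the MAP kinase route went both ways: 11 of 30 measured members were called higher and 10 lower, with a median difference of 0.20. IER3, an early response gene, read 13.87 and 13.73 in HDLM2 and 9.78 to 12.82 (median 10.48) in the other arrays, a difference of 2.82 ± 0.21 (adjusted p = 1.62e-05). DUSP5, a phosphatase of ERK in the nucleus, differed by 2.17 ± 0.18 (adjusted p = 2.74e-05) and RASGRP1, an activator of RAS in lymphocytes, by 1.74 ± 0.12 (adjusted p = 1.06e-05). DUSP2 read 6.52 and 5.64 in HDLM2 and 7.44 to 10.20 (median 9.17) in the other arrays, a difference of -2.98 ± 0.29 (adjusted p = 7.23e-05). DUSP6, a phosphatase of ERK in the cytoplasm, differed by -3.03 ± 0.21 (adjusted p = 9.81e-06), or -1.78 without L428, PHLDA1 by -2.48 ± 0.18 (adjusted p = 1.57e-05) and SPRY1, a sprouty inhibitor, by -2.62 ± 0.39 (adjusted p = 8.57e-04). With probe sets averaged PHLDA1 differed by -1.23 and SPRY1 by -1.64. EGR1, a target of this route, differed by -2.27 ± 0.19 (adjusted p = 2.83e-05), or -1.51 with probe sets averaged. In RGS proteins, which switch off G proteins, 3 of 18 measured members were called higher and 6 lower, with a median difference of -0.03. RGS3 read 11.99 and 12.02 in HDLM2 and 6.38 to 8.02 (median 6.74) in the other arrays, a difference of 5.04 ± 0.13 (adjusted p = 5.47e-08), or 1.57 with the mean of its probe sets. RGS1, abundant in germinal centre B cells, read 6.44 and 6.21 in HDLM2, 4.10 in the L540 pair and 11.57 to 12.30 in the other lines, a difference of -3.71 ± 0.19 (adjusted p = 2.13e-06), or -5.69 without the L540 pair.

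Single genes of the lists of receptor tyrosine kinases and growth factors were dim in HDLM2 and brighter in the other lines. Of 45 receptor tyrosine kinases, 7 were called higher and 9 lower (15.6% and 20%), with a median difference of 0.01. These shares were near those over all genes, 16.0% and 16.3%. After MET, IGF1R, the insulin-like growth factor receptor, read 5.42 and 4.44 in HDLM2 and 6.80 to 9.44 (median 8.77) in the other arrays, a difference of -3.48 ± 0.22 (adjusted p = 6.25e-06), or -2.17 with probe sets averaged. EPHB1, an ephrin receptor, differed by 2.83 ± 0.11 (adjusted p = 4.76e-07), between the bright L428 and L1236 and the dim KM-H2 and L540 pair, and by 4.27, 1.38 and 1.47 without L1236, KM-H2 and the L540 pair. Of 39 growth factors, 4 were called higher and 12 lower (10.3% and 30.8%), with a median difference of -0.05. FGF13, an intracellular member of the FGF family, read 3.73 and 3.69 in HDLM2 and 4.05 to 10.14 (median 8.93) in the other arrays, a difference of -4.30 ± 0.11 (adjusted p = 5.47e-08). In the WNT route, 9 of 56 measured members were called higher and 11 lower, with a median difference of -0.03. FZD1, a WNT receptor, read 4.94 and 4.90 in HDLM2 and 5.22 to 8.76 (median 7.13) in the other arrays, a difference of -2.10 ± 0.14 (adjusted p = 8.15e-06), or -0.87 with probe sets averaged, beside the fall of WNT5A. ZNRF3, a ligase that removes WNT receptors, read 8.24 and 8.55 in HDLM2 and 3.80 to 7.93 (median 6.19) in the other arrays, a difference of 2.40 ± 0.15 (adjusted p = 6.65e-06).

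In TGF-beta and BMP signalling, 14 of 47 measured members were called higher and 6 lower, with a median difference of 0.07. TGFBR3, the coreceptor betaglycan, read 10.82 and 11.57 in HDLM2 and 4.91 to 9.73 (median 9.05) in the other arrays, a difference of 3.06 ± 0.19 (adjusted p = 5.32e-06), or 2.01 without the L540 pair. SMAD7, the inhibitory SMAD, read 9.23 and 9.29 in HDLM2 and 6.58 to 8.14 (median 7.32) in the other arrays, a difference of 1.90 ± 0.25 (adjusted p = 4.28e-04). SMAD1, which relays BMP signals, read 5.44 and 4.86 in HDLM2 and 8.37 to 10.31 (median 9.18) in the other arrays, a difference of -4.11 ± 0.24 (adjusted p = 3.61e-06). HDLM2 was above every other array for TGFBR3 and SMAD7 and below every other array for SMAD1. In the NOTCH route, 10 of 41 measured members were called higher and 7 lower, with a median difference of 0.11. HEY1, a NOTCH target, read 5.97 and 6.21 in HDLM2 and 6.5 to 10.51 (median 8.61) in the other arrays, a difference of -2.35 ± 0.20 (adjusted p = 3.55e-05), with HDLM2 below every other array although NOTCH4 was high. In the PI3K list, 10 of 30 measured members were called higher and 7 lower, with a median difference of 0.18. PIK3CD, the leukocyte catalytic subunit, read 12.19 and 12.43 in HDLM2 and 9.63 to 11.42 (median 11.14) in the other arrays, a difference of 1.46 ± 0.12 (adjusted p = 3.44e-05). SGK1, a kinase under PI3K control, read 4.85 and 4.49 in HDLM2 and 6.66 to 11.49 (median 8.57) in the other arrays, a difference of -4.18 ± 0.23 (adjusted p = 2.71e-06).

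In the NF-kB route, 8 of 29 measured members were called higher and 4 lower, with a median difference of 0.10. REL, the c-Rel subunit, read 8.13 and 7.73 in HDLM2 and 8.33 to 11.42 (median 10.55) in the other arrays, a difference of -2.53 ± 0.16 (adjusted p = 5.04e-06). TRAF5, an adaptor of CD30 and CD40, read 9.22 and 9.43 in HDLM2 and 4.12 to 8.98 (median 5.53) in the other arrays, a difference of 3.31 ± 0.18 (adjusted p = 2.42e-06), or 1.67 with probe sets averaged. TRAF1, an NF-kB target, differed by 2.07 ± 0.15 (adjusted p = 1.18e-05) and by 0.84 without L1236, its lowest line. The subunit gene NFKB1 (-0.12) was not called. In the BCL2 family and caspases, 7 of 31 measured members were called higher and 9 lower, with a median difference of 0.05. BID, which links death receptors to mitochondria, read 8.88 and 8.67 in HDLM2 and 5.58 to 7.87 (median 6.36) in the other arrays, a difference of 2.27 ± 0.15 (adjusted p = 6.54e-06). PMAIP1 differed by -1.50 ± 0.27 (adjusted p = 0.00231), below every other array. In the cell cycle list, 6 of 27 measured members were called higher and 9 lower, with a median difference of 0.11. CDKN2A, at 9p21, read 11.40 and 10.94 in HDLM2, 10.43 and 11.19 in L428 and L1236 and 6.64 and 5.92 in KM-H2 and the L540 pair, a difference of 2.63 ± 0.17 (adjusted p = 6.65e-06).

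Cancer-testis antigens, germline genes that tumours can express, were more often called lower than higher: 3 of 38 measured members were called higher and 14 lower, with a median difference of -0.10. MAGEB2 read 3.95 and 3.90 in HDLM2 and 3.78 to 12.41 (median 10.91) in the other arrays, a difference of -5.54 ± 0.13 (adjusted p = 5.47e-08). MAGEB1 read 4.03 and 4.12 in HDLM2 and 4.08 to 11.45 (median 9.69) in the other arrays, a difference of -4.71 ± 0.19 (adjusted p = 5.78e-07). HDLM2 and the L540 pair (3.88 and 4.10) were both dim for these genes, and the other 3 lines were bright. DDX43 differed by -2.53 ± 0.13 (adjusted p = 1.85e-06), or -1.66 without L1236. TEX15, a factor of meiosis, read 10.01 and 10.70 in HDLM2 and 3.49 to 8.5 (median 5.80) in the other arrays, a difference of 4.48 ± 0.17 (adjusted p = 4.06e-07). TEX14 differed by 1.85 ± 0.23 (adjusted p = 3.03e-04). HOX genes, which pattern the body axis and mark blood lineages, were called in both directions: 10 of 33 measured members were called higher and 11 lower, with a median difference of -0.07. HOXC9 read 8.95 and 9.02 in HDLM2 and 4.19 to 7.27 (median 5.16) in the other arrays, a difference of 3.56 ± 0.11 (adjusted p = 1.40e-07). HOXC6 and HOXC10 differed by 3.12 ± 0.25 (adjusted p = 2.61e-05) and 1.88 ± 0.20 (adjusted p = 1.25e-04). MEIS1, a cofactor of HOX proteins, read 3.86 and 4.22 in HDLM2 and 4.83 to 8.77 (median 8.09) in the other arrays, a difference of -3.44 ± 0.17 (adjusted p = 1.36e-06). The 3 genes of the C cluster were the largest rises of the list.

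Chromosomes differed in their share of calls. On chromosome 13, 137 of 401 genes (34.2%) were called higher and 26 (6.48%) lower. On chromosome 20, 30 of 588 (5.1%) were called higher and 204 (34.7%) lower. Among genes with a mean of at least 6 log2 the median difference was 0.60 on chromosome 13 and -0.55 on chromosome 20. Against single lines that median ran from 0.29 to 1.05 on chromosome 13 and from -0.88 to -0.29 on chromosome 20, so HDLM2 was on the same side of each line. RB1, on chromosome 13, read 10.52 and 10.83 in HDLM2 and 9.43 to 10.51 (median 9.84) in the other arrays, a difference of 0.80 ± 0.12 (adjusted p = 0.001), but its most variable probe set was not called (0.85, adjusted p = 0.169). The next shares were 24.4% higher on chromosome 9 and 25.2% lower on chromosome 17.

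**Figure D5:**
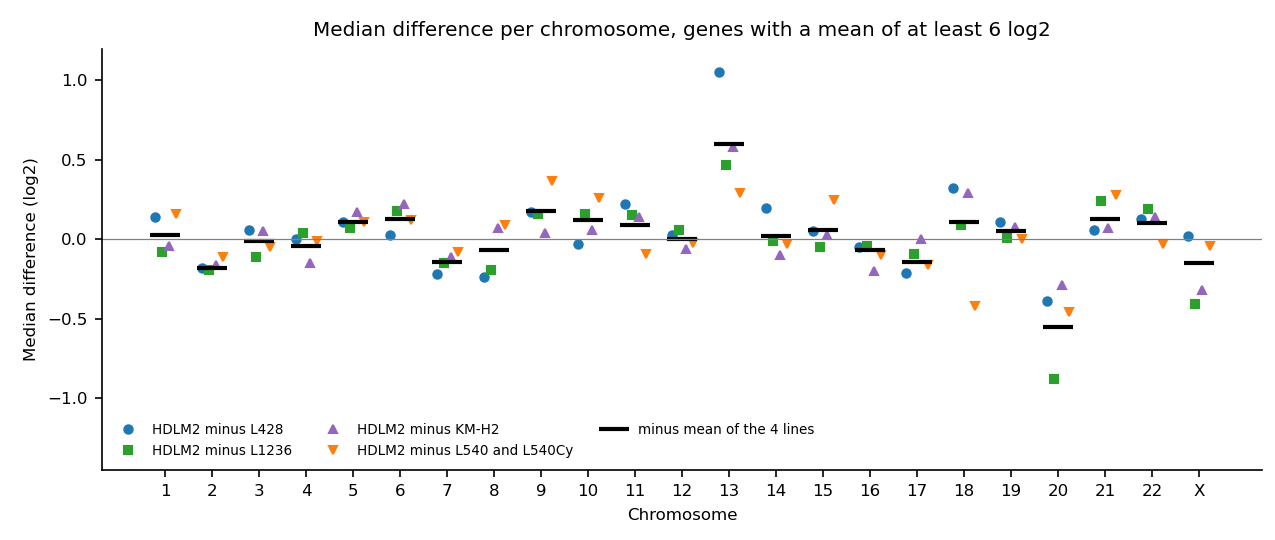
Median difference (log2, vertical axis) over genes with a mean of at least 6 log2 on each chromosome (horizontal axis), HDLM2 minus each other line (coloured symbols) and minus their mean (black bars). Chromosome 13 stands at 0.60 and chromosome 20 at -0.55, and the 4 lines lie on the same side of 0 for both.

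Windows of 15 neighbours placed these shifts more finely. After the tip of chromosome 9, the highest medians were 1.2 for CLTB to PRELID1, 1.0 for CCDC127 to TRIP13 and 0.97 for CANX to MGAT1, all on chromosome 5, each with 10 genes called higher and 0 lower. SQSTM1, the autophagy receptor in the last of them, differed by 1.02 ± 0.12 (adjusted p = 2.60e-04), or 0.57 without L428 and 2.13 on the most variable probe set. NSD1, a histone methyltransferase in the first, differed by 1.33 ± 0.18 (adjusted p = 5.70e-04), or 0.69 with probe sets averaged. On chromosome 19, ZNF420 to ZFP30, a cluster of zinc finger genes, had a median of 0.91. The lowest medians were -1.15 for EVI2B to MYO1D on chromosome 17, -1.15 for CHTF8 to LOC400541 on chromosome 16 and -1.12 for CEP250 to EPB41L1 on chromosome 20. SUZ12, a subunit of the Polycomb complex in the first of these, read 10.85 and 10.52 in HDLM2 and 11.28 to 12.17 (median 11.93) in the other arrays, a difference of -1.15 ± 0.15 (adjusted p = 4.53e-04). NFAT5 and TERF2, an osmotic stress factor and a telomere protein in the second, differed by -1.92 ± 0.11 (adjusted p = 2.79e-06) and -1.0 ± 0.13 (adjusted p = 3.28e-04), TERF2 by -1.94 on the most variable probe set. NFS1, a cysteine desulfurase in the third, differed by -1.41 ± 0.10 (adjusted p = 1.08e-05). The next lowest medians were -0.98 on chromosome 20 and -0.92 on chromosome 5. The window on chromosome 5 held 10 genes called lower and 0 higher, so that chromosome had both rises and falls. With windows of genes with a mean of at least 6 log2 alone, KANK1 to ERMP1 on chromosome 9 was highest at 2.23, and the lowest were -1.37 for ANKMY2 to KLHL7 on chromosome 7, -1.26 for CHTF8 to AARS1 on chromosome 16 and -1.2 for WDR12 to CCNYL1 on chromosome 2. Among the highest windows of such brighter genes was a stretch of chromosome 13, at 1.18, with 13 genes called higher and 0 lower. Over all windows of measured genes the 1st and 99th percentiles were -0.63 and 0.58.

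The 70 lists together held 2117 measured genes. In 20 of them over 30% of members were called higher and in 15 over 30% lower. Among the lists not described above were matrix proteins (8 higher and 8 lower of 45), epithelial genes (5 and 4 of 35), ion channels (11 and 15 of 71), semaphorins and plexins (5 and 8 of 46) and developmental factors outside the HOX group (15 and 17 of 89).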

How the data were processed

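Total RNA of untreated lines was measured on Affymetrix U133 Plus 2.0 arrays, and the authors deposited log2 values made with RMA, per the submitters' processing notes, whose software version is not given in the sources used here. RMA equalises the distribution over arrays, so only relative changes can be read. Of 54675 probe sets, 62 controls were left out, 41091 had 1 gene symbol, 1801 several and 11721 none. For each of 19740 genes the brightest probe set on average over the 10 Hodgkin arrays was used. Genes of the Y chromosome were not analysed here.

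Groups were taken from the sample titles. limma 3.58.1 in R 4.3.3 was fitted over the 10 Hodgkin arrays, with 1 mean per line, and separately over 5 line means. P-values were adjusted by Benjamini-Hochberg over all genes. Both fits were tested on simulated data with known changes. Deviations from the line means correlated between same-numbered arrays at 0.245 to 0.356 in all 6 pairs of lines. The labels do not say what a replicate number shares. The main fit held no term for it, so its spread includes any such effect. The replicate block, run as an alternative, set L540 and L540Cy midway between the replicate numbers. Arrays give no counts, so precision is limited by their number.

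Named genes were the 15 largest separated rises and falls, up to 4 called members per direction of each list, every member of the JAK and STAT, septin and 9p24 lists, lineage markers, and called members of the windows described. Of 321 genes in the text, not counting MKI67 and PLK1, 62 lay outside this rule and were named after their values were seen. Those named for their call over line means were among them. The members and lists were chosen with earlier results of these data known. Alternatives were other probe set choices, renormalization, a replicate block, other treatments of L540, all 15 arrays, a test against 1 log2, a filter on dim genes, and leaving out each array or line in turn. Windows restricted to brighter genes, shares per chromosome and the search for the GAAA pair were added after seeing the data. Promoter windows and gene order come from RefSeq tables.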

Additional observations from a re-analysis of the deposited data

Results flagged for a closer look

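Among the 4 other lines of origin, 5 of 31 leading genes had 1 line far from the rest, by a gap over range above the 95% critical value of Dixon's test for 4 values, which chance passes in about 1 in 20 groups. SOWAHC stood at 11.46 in the L540 pair, against 3.89 to 4.06 in L428, L1236 and KM-H2. SEPTIN10 stood at 12.16 in the L540 pair, against 3.31 to 3.44. CLDN14 stood at 9.08 in the L540 pair, against 4.90 to 5.26. TPM2 stood at 12.16 in KM-H2, against 4.73 to 4.82 in the other lines. MET stood at 13.08 in L428, against 10.21 to 10.38.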

How the results depend on the processing

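Of 285 named genes called over arrays, 193 kept their direction and call under every alternative run. Here and below, named genes leave out MKI67 and PLK1. Tested against a difference of 1 log2, 683 genes were called higher and 462 lower. Leaving out 1 replicate gave 2555 to 3011 higher and 2575 to 3131 lower. With the replicate number as a block, 3651 were called higher and 3747 lower, and the block changed no call of a named gene other than those given beside their results. With all 15 arrays sharing the spread, 2439 and 2528 were called. The calls over line means moved most, from 39 higher and 6 lower: to 95 and 16 with L540 and L540Cy as 2 lines, 5 and 2 over genes with a mean of at least 6 log2, 19 and 3 tested against 1 log2, 70 higher with trended, robust variances, and 2 lower with probe sets averaged. They were 0 and 0 without L428, L1236, KM-H2 or the L540 pair, and 29 to 59 higher and 5 to 7 lower without 1 replicate. HLA-DQA1 reversed to 3.27 with probe sets averaged and 7.84 with the most variable, and NKG7 to 1.44 without the L540 pair. The causes of these changes were not tested. Dim probe sets limit the falls: where HDLM2 lay near 4 log2, the size of a fall depends on the level of background signal. One line cannot be told apart from its tumour, donor or culture history.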
